A study of Mus musculus with 4 samples.

Results

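This report describes how epigonadal white fat of LDKO mice differed from fat of their floxed control, gene by gene across the whole array and then by gene family and function. The fat pad lies beside the testis and epididymis. LDKO mice carry floxed alleles of Irs1 and Irs2, the adaptor proteins that pass on the signal of the insulin receptor, together with Cre recombinase expressed from the promoter of the albumin gene. The Irs1/2-flox control carries the same floxed alleles without Cre. The series holds 2 more arrays, the Irs1/2:FoxO1-flox control, in which Foxo1 is floxed as well and Cre is absent, and LTKO, which is Irs1/2:FoxO1-flox with Albumin-Cre. All mice were males and were fasted, and LDKO and LTKO mice were 4 months old, while the labels used here give no age for the controls. The albumin promoter is active in hepatocytes, so the deletion was directed at liver and the tissue measured was another one. Each genotype had 1 array, and whether it held 1 mouse or a pool is not in the labels. The comparison therefore rests on 2 of the 4 arrays, has no replicate, and gives no standard error, interval or p-value. Genotype, animal, age and array cannot be told apart in it.

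Each of the 22180 genes was represented by the probe with exactly 1 gene symbol and the highest mean over the 4 arrays. Of these genes 11533 passed a filter on dim signals, which asked that the brighter of the 2 arrays reach 5.15, the median of the gene means, and they are the genes described below. Values are RMA levels on the log2 scale, a difference is LDKO minus the Irs1/2-flox control, and 1 unit is 2-fold. Where 4 levels follow each other, their order is Irs1/2-flox control, LDKO, Irs1/2:FoxO1-flox control, LTKO. The difference of LDKO from the Irs1/2:FoxO1-flox control, called the other control, is given beside the main value of many results. Both differences contain the LDKO array, so their likeness is no independent check, and the gap between the 2 controls shows how far arrays without Cre lay apart.

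White adipocytes store triglyceride when insulin is high and release fatty acids when it falls. Insulin drives glucose entry, the making of fatty acids from acetyl-CoA and NADPH, and their esterification on a glycerol backbone, and it restrains lipolysis. The liver supplies hormones and fuels to fat through the blood. A fat pad also holds macrophages, vessels, stromal progenitors and a mesothelial cover, and in bulk RNA fewer cells of a type and less RNA per cell cannot be told apart.

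Most genes differed little. The median difference over all genes past the filter was −0.05, with quartiles of −0.22 and 0.13, and 43.2% of the genes were higher in LDKO. The counts of higher and lower members given below are to be read beside that share. The median absolute difference was 0.178, against 0.159 between the 2 controls and 0.190 between LDKO and the other control. At least 2-fold higher were 66 genes (0.572%) and at least 2-fold lower were 72 (0.624%). At 1.5-fold the counts were 329 (2.85%) and 448 (3.88%). The LDKO array was the highest of the 4 arrays for 23.5% of genes and the lowest for 37.5%. The Irs1/2-flox control array was highest for 24.8% and lowest for 23.6%. Among the 66 higher genes LDKO was the highest array for 63 and the Irs1/2-flox control the lowest for 45. Among the 72 lower genes LDKO was the lowest for 66 and that control the highest for 48. These genes were picked by the difference of the same 2 arrays, so such places largely follow from the selection.

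Adipocyte markers were present. All 21 measured genes of an adipocyte list passed the filter, and Adipoq, the gene of adiponectin, read 10.49, 10.57, 10.48 and 10.35 (difference 0.08). The 4 adiponectin levels lay close together. The adipocyte list had a median of 0.08, with 16 of 21 members higher. Of 29 measured epididymis genes 5 passed the filter, with a median of 0.00, and of 27 liver genes 8 did, with a median of −0.03.

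Genes were grouped into 163 lists by function, family or cell type, and 158 lists had at least 5 members past the filter. Of these, 8 had a median of at least 0.3, 7 had a median of −0.3 or below, and 143 lay between. The 8 higher lists were all of energy metabolism: the tricarboxylic acid (TCA) cycle with pyruvate entry, the supply of acetyl-CoA and NADPH, mitochondrial fatty acid oxidation and the subunits of the 5 respiratory complexes. The 7 lower lists held genes of cell types and of a hormone response: skeletal muscle, glucocorticoid-responsive genes, mesothelium, resident macrophages, lymphatic endothelium, the Ms4a family and stromal progenitors.

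**Figure D1:**
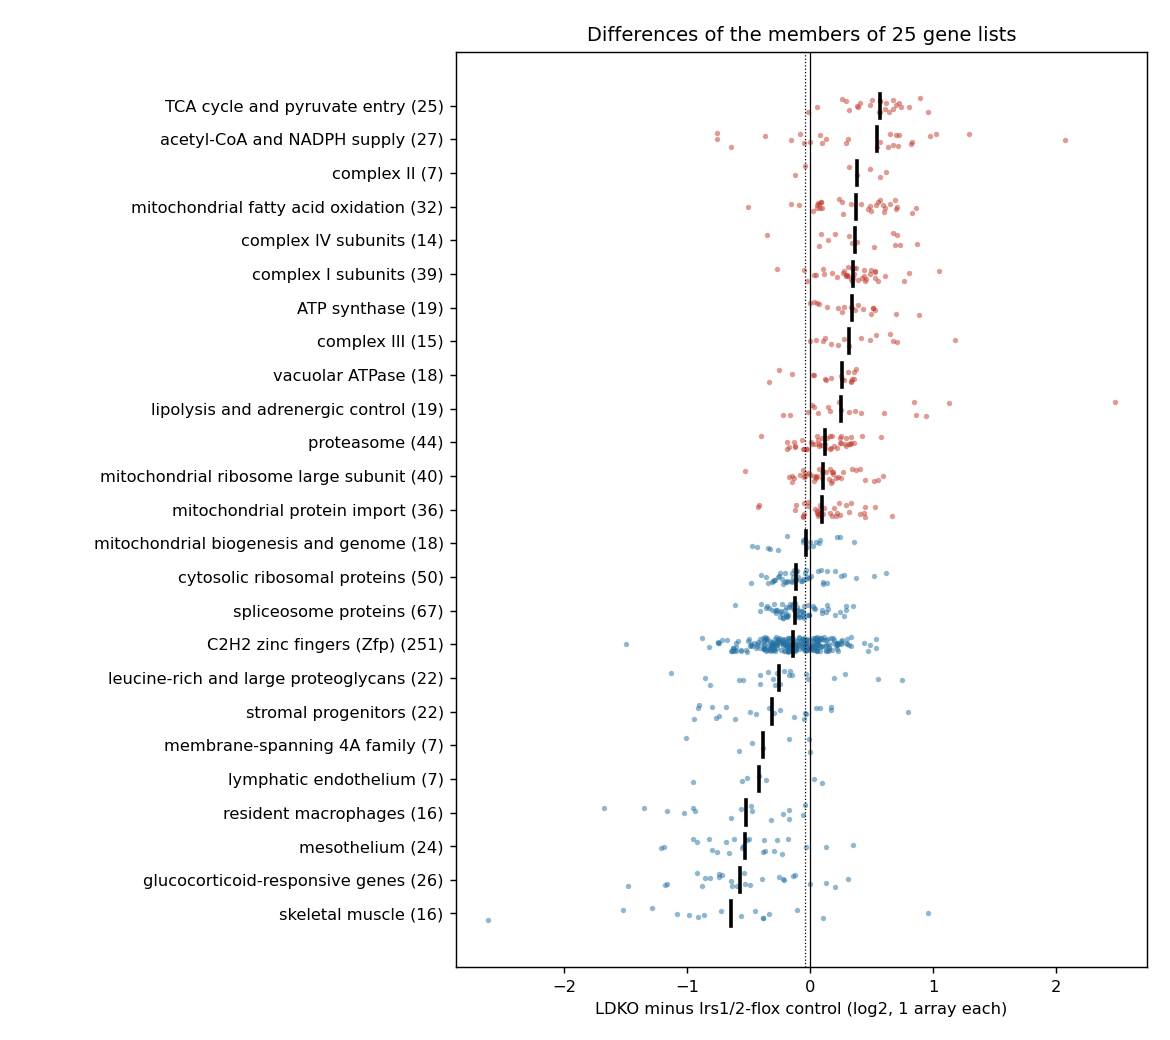
Each point is a gene past the level filter and each row a gene list, with the number of genes in brackets; the horizontal axis is the difference LDKO minus Irs1/2-flox control on the log2 scale, red and blue mark lists with a median above or below 0, the black bar is the list's median, and the dotted line is the median of all genes (−0.05). Respiratory and TCA cycle genes lie mostly to the right of 0 and resident macrophage genes all to the left, with 1 array per genotype.

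The TCA cycle, the mitochondrial cycle that burns acetyl-CoA, was the list with the highest median, 0.57 over 25 genes. 24 of the 25 were higher in LDKO and 11 were at least 1.5-fold higher, where 2.85% of all genes were. Aco1, the cytosolic aconitase that also senses iron, read 8.28, 9.24, 9.09 and 8.73 (difference 0.96). Idh3a, the catalytic subunit of NAD-dependent isocitrate dehydrogenase, read 9.19, 10.08, 9.63 and 9.49 (difference 0.89), and citrate synthase (Cs), the entry enzyme, read 9.45, 10.25, 9.94 and 9.82 (difference 0.80). In these genes the LDKO array was the highest and the Irs1/2-flox control the lowest of the 4. Mpc1, a subunit of the carrier that brings pyruvate into mitochondria, was higher by 0.74, and its second probe by 0.43. Idh2, the NADP-dependent mitochondrial isocitrate dehydrogenase, was the only member not higher, with 8.48, 8.47, 8.76 and 8.76 (difference −0.01). The LDKO array was the highest of 4 for 22 members and the Irs1/2-flox control array the lowest for 21. Over all genes these shares were 23.5% and 23.6%. Against the other control the median was 0.16, with Aco1 at 0.15, Idh3a at 0.45 and Cs at 0.31.

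The respiratory chain passes electrons through complexes I to IV, and ATP synthase uses the resulting proton gradient. Over 94 subunits and close partners of these 5 complexes the median was 0.34 and 87 were higher. Of the 94, 16 were at least 1.5-fold and 2 at least 2-fold higher, and none was 1.5-fold lower. The shares over all genes were 2.85%, 0.572% and 3.88%. The 2 genes past 2-fold were Cycs and Ndufb3. Cycs, cytochrome c, read 10.21, 11.39, 10.12 and 10.43 (difference 1.18), and its difference of 1.18 was met by values between 0.76 and 1.59 at its 4 other probes, of which 2 hold identical values; cytochrome c has many processed copies in the genome, so the probes may not be specific. Ndufb3, an accessory subunit of complex I, read 6.85, 7.90, 6.96 and 6.94 (difference 1.05). In both genes LDKO stood above the 3 other arrays, which lay close together, and the difference from the other control was 1.26 and 0.94.

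Within complex I, 36 of 39 subunits were higher with a median of 0.35. Ndufs1, which holds iron-sulfur clusters of the electron entry arm, read 8.20, 8.998, 8.60 and 8.48 (difference 0.80), and Ndufa1, a membrane-arm subunit, read 7.54, 8.30, 7.99 and 7.86 (difference 0.77). Both had LDKO on top and the Irs1/2-flox control at the bottom. Ndufa4l2, a hypoxia-induced relative of a subunit, differed by −0.27. Complex II, succinate dehydrogenase, had 5 of 7 members higher, with the iron-sulfur subunit Sdhb at 0.62 and its membrane anchors Sdhc and Sdhd at 0.57 and 0.49, while the assembly factors Sdhaf2 and Sdhaf1 were at −0.12 and −0.04. Complex III had 14 of 15 higher, with a median of 0.32. Its subunit Uqcrq read 5.38, 6.09, 5.53 and 5.56 (difference 0.71), and cytochrome c1 (Cyc1) was higher by 0.68.

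Complex IV, cytochrome c oxidase, had 13 of 14 subunits higher with a median of 0.36. Cox8b, an isoform found in muscle and brown fat, read 5.19, 6.05, 5.76 and 5.77 (difference 0.87), and Cox5b read 8.90, 9.63, 9.14 and 9.15 (difference 0.73), with 0.27 at its second probe. LDKO was the highest array for both. Cox7a2l, which links complexes III and IV, was the exception and read 6.89, 6.53, 6.47 and 6.55 (difference −0.35), with the Irs1/2-flox control above 3 close arrays. All 19 ATP synthase genes were higher, with a median of 0.34. The assembly factor Atpaf2 read 6.82, 7.71, 7.30 and 7.13 (difference 0.89), and the small subunit gene Atp5mpl was higher by 0.70. With the other control as reference the medians of complexes I to IV and ATP synthase were 0.23, 0.24, 0.18, 0.24 and 0.16, and 78 of the 94 genes were higher.

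Muscle is rich in mitochondria, and its markers are given beside these values. Skeletal muscle genes were lower in LDKO, with a median of −0.64, and Cox8b and the muscle-type cytochrome oxidase subunit Cox7a1 were higher by 0.87 and 0.38. The part of cell composition in the respiratory difference was not tested.

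**Figure D2:**
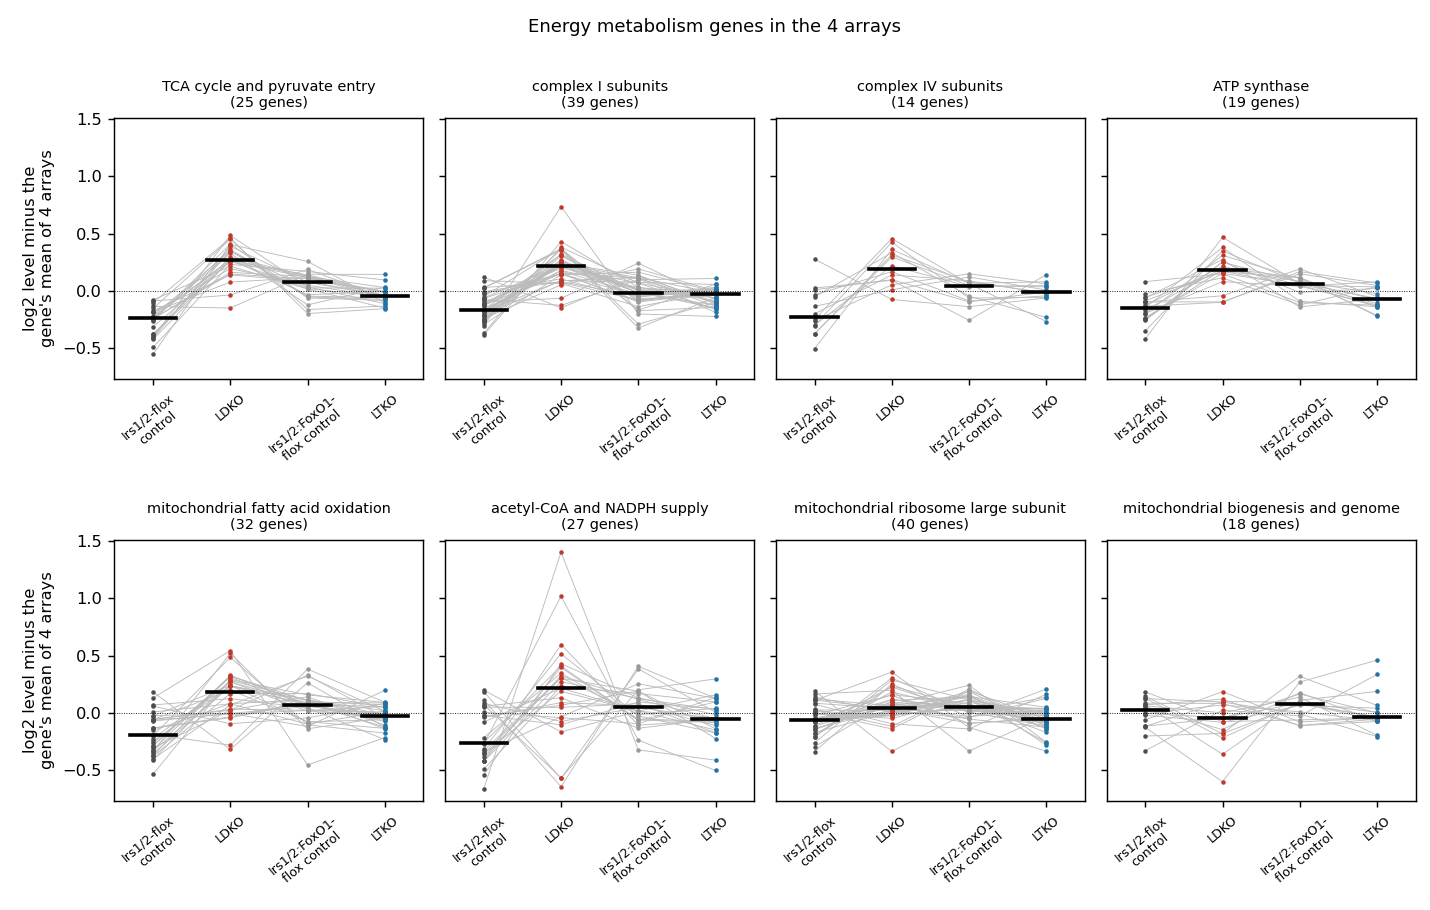
Each panel is a gene list and each grey line a gene; the vertical axis is the log2 level in an array minus that gene's mean over the 4 arrays, with 1 array per genotype on the horizontal axis and a black bar at the median. In the TCA cycle panel the medians are −0.24, 0.27, 0.07 and −0.05 from left to right, and in the mitochondrial ribosome panel they lie between −0.06 and 0.05.

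Mitochondrial fatty acid oxidation, which cuts fatty acids to acetyl-CoA, had a median of 0.37 over 32 genes, with 29 higher. Of the 32, 9 were at least 1.5-fold higher, where 2.85% of all genes were. Acad9, an acyl-CoA dehydrogenase that also helps to assemble complex I, read 6.17, 7.03, 6.37 and 6.47 (difference 0.86). Acadvl, the very-long-chain enzyme, read 7.92, 8.75, 8.61 and 8.54 (difference 0.83), and Cpt2, which reforms acyl-CoA inside mitochondria, read 8.30, 9.002, 8.73 and 8.66 (difference 0.70). For Acad9 LDKO stood apart from all 3 other arrays, whereas for Acadvl the Irs1/2-flox control stood apart below the rest. The short-chain dehydrogenase Acads was higher by 0.69. The 3 members that were not higher were Hsd17b10 (−0.50), the carnitine acyltransferase Cpt1a of the outer membrane (−0.15) and carnitine acetyltransferase Crat (−0.09, but 0.35 at its second probe). Against the other control the list's median was 0.13.

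Other mitochondrial genes were nearer to 0. The large and small subunits of the mitochondrial ribosome had medians of 0.10 and 0.02, protein import 0.09, coenzyme Q synthesis 0.07, complex I assembly factors 0.14 and complex IV assembly factors 0.28. Genes that build and read the mitochondrial genome had a median of −0.03, where all genes had −0.05. Of these 18 genes 11 were lower and 7 higher. Ppargc1a, the coactivator that drives mitochondrial gene programmes, read 6.48, 6.01, 6.88 and 7.07 (difference −0.48). Tfam, the packaging factor of mitochondrial DNA, read 5.67, 5.24, 5.71 and 5.79 (difference −0.43), and Gabpa, a transcription factor of respiratory genes, read 8.14, 7.80, 8.10 and 8.02 (difference −0.35). LDKO was the lowest array for each of these 3 regulators and for 8 of the 18 genes of their list, against 37.5% of all genes. It was the highest for 74 of the 94 respiratory genes, against 23.5% of all genes. Immt, a scaffold of the cristae, was higher by 0.68.

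Nuclear genes of the respiratory chain are classical targets of the factor NRF1, and promoters were searched for its core, written GCGCATGCG, on both strands, in windows from 250 bases before to 50 after each gene start as given by RefSeq for GRCm38.p6. The motif was present in 10 of 71 respiratory chain genes with a promoter in that table (14.1%), in 5 of 34 genes of the mitochondrial ribosome's large subunit (14.7%), in 5 of 27 fatty acid oxidation genes (18.5%), in 1 of 23 TCA cycle genes (4.35%) and in 363 of all 9041 genes past the filter with a promoter (4.02%). Over all genes the median difference was −0.06 with the motif and −0.05 without it, and over the 71 respiratory genes 0.41 and 0.37. Stretches of 60 bases upstream of the start are shown for 4 respiratory genes with higher levels in LDKO, with the motif or its reverse complement in capitals and the coordinates of the stretch after the gene name.
Cycs, chr6:50566596-50566655, minus strand: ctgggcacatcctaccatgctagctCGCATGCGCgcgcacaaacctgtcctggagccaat
Ndufa11, chr17:56717677-56717736, plus strand: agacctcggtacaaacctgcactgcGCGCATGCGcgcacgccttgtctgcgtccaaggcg
Atp5k, chr5:108434415-108434474, minus strand: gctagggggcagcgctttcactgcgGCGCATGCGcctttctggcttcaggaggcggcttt
Atp5l, chr9:44920933-44920992, minus strand: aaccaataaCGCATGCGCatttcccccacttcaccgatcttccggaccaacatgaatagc
None of these 4 stretches held another of the 8 motifs searched. Cycs differed by 1.18, the complex I subunit Ndufa11 by 0.61, and the ATP synthase subunits Atp5k and Atp5l by 0.53 and 0.51. Among other respiratory genes with the motif, Cox6a1 and Ndufa8 differed by 0.31 and 0.27, Atp5g2 by 0.03 and Ttc19 by −0.0004. A match to the letters is a description of the sequence and does not show that a factor was bound. The cyclic AMP response element, written TGACGTCA, was in 5 of the 71 respiratory genes (7.04%) against 3.33% of all genes. Cycs and Ndufa11 were among them, with the element outside the stretches shown.

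Fatty acid synthesis needs acetyl-CoA carried out of mitochondria as citrate and NADPH made by malic enzyme, isocitrate dehydrogenase and the pentose phosphate pathway. The list of these genes stood at a median of 0.55 over 27 genes. Of them 12 were higher by 1.5-fold or more and 3 lower by as much, against 2.85% and 3.88% of all genes. Slc25a10, the mitochondrial dicarboxylate carrier, read 5.68, 7.75, 6.02 and 5.93 (difference 2.07), and LDKO stood above 3 arrays that lay within a narrow band. Thrsp, a lipogenic protein induced by carbohydrate and thyroid hormone, read 9.05, 10.34, 9.09 and 8.82 (difference 1.29), the same pattern. Malic enzyme Me1 read 9.92, 10.94, 10.23 and 10.28 (difference 1.02). Slc25a1, the citrate carrier, read 8.57, 9.54, 9.25 and 9.10 (difference 0.97), and here the Irs1/2-flox control was the array set apart.

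The 3 members at least 1.5-fold lower were regulators. Pdk2, a kinase that switches off pyruvate dehydrogenase, read 9.37, 8.61, 9.57 and 9.19 (difference −0.76), and Pdk4, the fasting-induced kinase of the same family, read 11.26, 10.62, 11.39 and 11.48 (difference −0.64). Mlxipl, which encodes the glucose-sensing transcription factor ChREBP, read 7.50, 6.74, 7.80 and 7.52 (difference −0.76). LDKO was the lowest of the 4 arrays for all 3, and the differences from the other control were −0.96, −0.77 and −1.05. Against that control the list's median was 0.15, with Slc25a10 at 1.73, Thrsp at 1.26, Me1 at 0.70 and Slc25a1 at 0.30.

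The box of the factor NF-Y, written CCAATCA, is common in promoters of lipid-making genes, and 9 of 26 genes of this list held it (34.6%), as did 8 of 27 fatty acid oxidation genes (29.6%), 6 of 22 glucocorticoid-responsive genes (27.3%), 4 of 71 respiratory genes (5.63%) and 985 of 9041 genes in all (10.9%). The stretches below, with the box or its reverse complement in capitals, come from 4 genes that were higher in LDKO and 2 that were lower.
Idh1, chr1:65186597-65186656, minus strand: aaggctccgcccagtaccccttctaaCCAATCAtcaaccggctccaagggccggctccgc
Taldo1, chr7:141392100-141392159, plus strand: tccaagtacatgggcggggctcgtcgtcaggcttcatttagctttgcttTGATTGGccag
Pcx, chr19:4510266-4510325, plus strand: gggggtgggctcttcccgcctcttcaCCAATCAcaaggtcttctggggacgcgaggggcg
Mdh1, chr11:21571975-21572034, minus strand: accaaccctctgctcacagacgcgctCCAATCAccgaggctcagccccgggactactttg
Mlxipl, chr5:135089689-135089748, plus strand: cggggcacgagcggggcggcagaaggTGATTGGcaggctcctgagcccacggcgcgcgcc
Pdk4, chr6:5496378-5496437, minus strand: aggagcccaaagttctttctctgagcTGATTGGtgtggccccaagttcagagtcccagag
Cytosolic isocitrate dehydrogenase Idh1 read 9.03, 9.86, 9.31 and 9.16 (difference 0.83), the transaldolase Taldo1 of the pentose phosphate pathway read 7.74, 8.56, 8.10 and 8.26 (difference 0.82), and pyruvate carboxylase Pcx read 9.20, 9.92, 9.86 and 9.79 (difference 0.72). The Irs1/2-flox control was the lowest array for all 3. Cytosolic malate dehydrogenase Mdh1 was higher by 0.67. The box occurred in genes of both directions, and no other searched motif lay in these 6 stretches. Outside them, the promoters of Pcx and Mlxipl also held the E-box CACGTG, another of the motifs searched.

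Triglyceride assembly was split. Of 20 genes 13 were higher and 7 lower, with a median of 0.10. Pnpla3, a lipid droplet acyltransferase and lipase induced by feeding, read 6.53, 8.45, 7.64 and 7.25 (difference 1.92). Gpd1, which makes glycerol 3-phosphate, read 9.53, 10.72, 10.25 and 10.25 (difference 1.20), with a difference of 0.79 at its second probe. Agpat2, the enzyme of the second acylation, read 8.76, 9.77, 9.58 and 9.37 (difference 1.01). For Gpd1 and Agpat2 the Irs1/2-flox control lay below 3 arrays that were near each other. Gpam, the acyltransferase that opens the pathway, read 10.20, 9.45, 10.28 and 9.96 (difference −0.75), and the phosphatidate phosphatase Lpin1 read 10.63, 9.92, 10.31 and 10.39 (difference −0.71), with LDKO the lowest array. With the other control as reference the list's median was −0.03.

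Lipid droplet proteins had a median of −0.03. Cidea, a droplet protein of brown and large white adipocytes, read 5.97, 7.43, 7.22 and 6.93 (difference 1.46), with a difference of 0.21 from the other control. The droplet coat protein Plin2, which follows fatty acid supply, read 10.29, 9.79, 10.04 and 10.28 (difference −0.50), and Hilpda, a hypoxia- and fatty acid-induced inhibitor of lipolysis, read 6.45, 5.93, 6.50 and 6.47 (difference −0.52). Both Plin2 and Hilpda were lowest in LDKO. Caveolae, the membrane pits that cover adipocytes, had 9 of 11 genes higher, with a median of 0.14, or 0.29 against the other control. Their coat protein gene Cavin3 read 7.89, 8.82, 7.87 and 7.80 (difference 0.93), Ehd2, which holds caveolae at the membrane, was higher by 0.81, and the caveolins Cav2 and Cav1 by 0.75 and 0.51. Cavin1 and Cavin2 differed by 0.08 and 0.03.

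Other lipid genes had list medians near 0 with single large members. In chain elongation and desaturation (median 0.05) the 3-ketoacyl-CoA reductase Hsd17b12 was higher by 0.75 and the enoyl reductase Tecr by 0.72, against 0.30 and 0.18 with the other control. Lpgat1, an acyltransferase of lysophospholipids, read 8.85, 10.04, 8.76 and 8.98 (difference 1.19), highest in LDKO. Oxct1, the enzyme that lets extrahepatic tissue burn ketone bodies, read 9.48, 10.33, 9.36 and 9.37 (difference 0.85), also highest in LDKO. The cholesterol exporter of lysosomes Npc1 read 8.76, 7.63, 9.36 and 8.90 (difference −1.12), lowest in LDKO, with a difference of 0.033 at its dim second probe, while its soluble partner Npc2 was higher by 0.70. Among sphingolipid genes (median −0.06) Sptlc3, of the first step, and Degs1, the dihydroceramide desaturase, were higher by 0.59 and 0.54, and the ceramide synthase Cers6 differed by −0.58. Apoc3 and Apoc2, small apolipoproteins that act on lipoprotein lipase, differed by −0.66 and −0.57.

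Genes that control lipolysis were mostly higher, 16 of 19, with a median of 0.25 against 0.01 with the other control. The list's 2 largest values belonged to receptors that brake the pathway. Hcar1, the lactate receptor that lowers cyclic AMP, read 6.56, 9.04, 8.06 and 7.51 (difference 2.48), and its neighbour Hcar2, the receptor for the ketone body 3-hydroxybutyrate, read 5.65, 6.78, 6.64 and 6.31 (difference 1.13). G0s2, an inhibitor of the lipase ATGL, read 7.89, 8.74, 7.67 and 8.28 (difference 0.86), with a difference of 0.22 at its second probe. The Irs1/2-flox control was the lowest array for both receptors and LDKO was the highest, with the other control 0.98 and 0.14 below it. Prkaca, a catalytic subunit of protein kinase A, differed by 0.94 at its brighter probe and by −0.13 at the other. The lipases themselves differed little, with Lipe at −0.01 and Pnpla2 at 0.02, and Prkar1a, a regulatory subunit of the same kinase, was the member with the most negative value at −0.22.

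Among insulin signalling genes, 17 of 39 were higher and the median was −0.06, or −0.17 against the other control. Slc2a4, which encodes the insulin-regulated glucose transporter GLUT4, read 7.003, 8.04, 7.40 and 6.95 (difference 1.03), and Grb14, an adaptor that blocks the insulin receptor, read 6.20, 7.16, 6.003 and 6.48 (difference 0.96). Both were highest in LDKO. Pik3r1, a regulatory subunit of phosphoinositide 3-kinase, was higher by 0.62, whereas the catalytic subunit gene Pik3cb read 9.08, 8.43, 8.98 and 9.08 (difference −0.65), lowest in LDKO. The insulin receptor gene Insr differed by −0.47 and Foxo3, a target of the pathway, by −0.52.

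Glycolysis had a median of 0.08, with 14 of 22 genes higher. Triose phosphate isomerase Tpi1 read 8.35, 9.67, 8.57 and 8.70 (difference 1.32), with LDKO about 1 unit above each other array, and phosphoglycerate kinase Pgk1 was higher by 0.61. Phosphoglycerate mutase Pgam1 differed by 0.98 at its brighter probe and by −0.19 at the other. In glycogen metabolism (median 0.16, or −0.05 against the other control) the liver-type synthase Gys2 read 5.93, 7.23, 7.28 and 6.34 (difference 1.30), and LDKO lay beside the other control, from which it differed by −0.05. The muscle phosphorylase Pygm differed by −0.83, and the brain-type phosphorylase Pygb by 0.72. The hexosamine pathway, which turns glucose into UDP-sugars for glycoproteins and hyaluronan, had 10 of 11 genes lower and a median of −0.26, or −0.25 against the other control. Its entry enzyme Gfpt2 read 7.61, 6.55, 7.44 and 6.999 (difference −1.06), and Ugdh, which makes UDP-glucuronate, differed by −0.49. The sialyltransferase St6galnac5 read 7.79, 5.71, 7.14 and 6.74 (difference −2.07) and Cmah, the hydroxylase of sialic acid, read 6.77, 5.75, 6.39 and 6.26 (difference −1.02). LDKO was the lowest and the Irs1/2-flox control the highest array for Gfpt2, St6galnac5 and Cmah.

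Amino acid genes differed in both directions. Of 30 transporters 21 were lower and 9 higher with a median of −0.17, where 43.2% of all genes were higher. The large neutral amino acid transporters Slc7a8 and Slc7a5 read 9.29, 8.27, 9.04 and 8.64 (difference −1.02) and 5.82, 4.96, 5.43 and 6.02 (difference −0.86) respectively, and LDKO was the lowest array for each. Slc7a10, a serine transporter of white adipocytes, was higher by 0.69, and its neighbour in the genome, the adipogenic factor Cebpa, by 0.61. Targets of the amino acid stress factor ATF4 had a median of −0.01 with members at both ends. Psat1, a serine synthesis enzyme, read 6.64, 7.85, 7.61 and 7.21 (difference 1.22), and Cth, which makes cysteine, read 6.20, 7.06, 6.27 and 6.64 (difference 0.86). Chac1, which degrades glutathione, read 6.59, 5.63, 6.83 and 6.43 (difference −0.96), and Sesn2, a stress sensor that restrains mTORC1, read 7.77, 6.88, 7.80 and 8.10 (difference −0.89). In branched-chain amino acid breakdown (median 0.06) the transaminase Bcat2 was higher by 0.82 and the carboxylase subunit genes Mccc1 and Pcca by 0.84 and 0.69, with Mccc2 at −0.25.

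Nucleotide synthesis was lower in 21 of 24 genes, with a median of −0.15 and −0.17 against the other control. Prps2, which makes the activated ribose, differed by −0.64, xanthine dehydrogenase Xdh by −0.56 and Umps, of pyrimidine synthesis, by −0.48. The LDKO array was the lowest of 4 for 16 of the 24 genes, where it was for 37.5% of all genes. Only Prps2 was 1.5-fold lower.

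Peroxisomal enzymes, which shorten very long and branched fatty acids, had 24 of 35 genes higher, but 16 against the other control. Hacl1, the lyase of branched-chain fatty acid oxidation, read 7.66, 8.77, 8.32 and 8.21 (difference 1.10), and the epoxide hydrolase Ephx2 read 10.91, 11.90, 11.64 and 11.46 (difference 0.98). For both the Irs1/2-flox control was the array set lowest. The acyl-CoA thioesterases Acot4 and Acot3, which lie next to each other, read 6.08, 4.96, 6.21 and 6.21 (difference −1.12) and 5.22, 4.52, 6.05 and 5.23 (difference −0.70), lowest in LDKO, although the second probe of Acot4 differed by 0.11. Vnn1, a pantetheinase that releases vitamin B5 and responds to the fatty acid receptor PPARα, read 9.96, 7.34, 10.05 and 10.08 (difference −2.61), and LDKO lay far under 3 arrays that nearly coincided.

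Retinoid genes had a median of 0.02, or 0.11 against the other control, with large values for Aldh1a7, an aldehyde dehydrogenase, at 7.59, 9.65, 8.07 and 7.90 (difference 2.06) and for retinol saturase Retsat at 8.45, 9.37, 9.20 and 8.99 (difference 0.92). Rbp4, the retinol carrier of plasma, was higher by 0.78. In the cytochrome P450 family 22 of 93 genes passed the filter. Cyp2f2 read 5.998, 8.83, 6.91 and 7.98 (difference 2.83) at its brighter probe, and its second probe differed by 0.57. Cyp2d22 read 8.50, 7.35, 8.68 and 8.54 (difference −1.16) and was lowest in LDKO. Glutathione S-transferases had a median of 0.00, with Mgst3 and Gsta3 at 0.86 and 0.81 and Gstt2 and Gstm1 at −0.52 and −0.52.

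The proteasome and the proton pump of lysosomes were shifted slightly up. Of 44 proteasome genes 32 were higher, with a median of 0.12, and none was 1.5-fold apart. All 10 Psmb genes, which form the catalytic ring, were higher, led by Psmb7 at 0.57. The vacuolar ATPase had 15 of 18 genes higher and a median of 0.26, with Atp6v0d1 at 0.36 and Atp6ap2 at −0.33. Against the other control these medians were 0.03 and 0.13.

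Genes that handle RNA and chromatin were shifted slightly down, by less than the lower quartile of all genes. Translation factors had a median of −0.13 (44 of 57 lower), cytosolic ribosomal proteins −0.11 (37 of 50), spliceosome proteins −0.12 (53 of 67) and C2H2 zinc finger genes −0.14 (173 of 251). Over all genes the median was −0.05 and 43.2% were higher. With the other control as reference these 4 medians were −0.18, −0.12, −0.06 and −0.15, where all genes had −0.06, so the spliceosome list lay at the level of all genes there. The initiation factor gene Eif4b differed by −0.47, and by −0.48 from the other control. Eif3d differed by −0.50 at its brighter probe and by 0.34 at the other. LDKO was the lowest array for 36 of the translation factors and 131 of the zinc finger genes, where it was for 37.5% of all genes. Zfp97 was the only zinc finger gene 2-fold lower and read 5.36, 3.86, 4.56 and 4.69 (difference −1.502), with its LDKO level under the filter's threshold.

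Symbol families, genes whose names share the letters before the first digit, were described as well. There were 181 families with at least 8 genes past the filter. The medians of 2 reached 0.3, those of Cox (0.36, 20 genes) and Ndufa (0.35, 14 genes), both of which overlap the respiratory lists. Against the other control these were 0.17 and 0.19. Next came Tspan, the tetraspanin membrane proteins, at 0.28 with 13 of 15 higher, among them Tspan12 at 0.97 and Tspan18 at 0.61, but −0.04 against the other control. Commd, the endosomal sorting proteins, had a median of 0.24, with 7 of 8 higher and 8 of 8 against the other control. The medians of 3 families were −0.3 or below. The chemokine family Ccl was at −0.40, with Ccl6 at −0.71, Ccl24 at −0.65 and, as the opposite extreme, Ccl5 at 0.76, and its median was −0.09 against the other control. The Bmp family was at −0.36, with Bmp2 at −0.74 and Bmp3 at 1.41, and its median was −0.07 against the other control. Zcchc, CCHC zinc finger proteins that bind RNA, was at −0.30, and at −0.22 against the other control.

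Families of nuclear proteins were lower by smaller amounts. All 9 Srsf genes, the serine- and arginine-rich splicing factors, were lower and were lowest in LDKO among the 4 arrays, with a median of −0.27 and −0.18 against the other control. LDKO was the lowest array for 37.5% of all genes. Srsf3 differed by −0.40, Srsf4 by −0.36 and Srsf5 by −0.35. All 9 Utp genes of ribosome biogenesis and all 8 Exosc genes of the RNA exosome were lower, with medians of −0.28 and −0.18, and 8 of 9 and 6 of 8 were lower against the other control. The Med family, subunits of the Mediator complex that joins transcription factors to RNA polymerase, had 22 of 30 genes lower with a median of −0.20 and 27 of 30 lower against the other control. The Klf factors, among them the glucocorticoid-induced Klf9 at −0.54 and Klf15 at −0.42, had a median of −0.27, but −0.08 against the other control. The Irs1/2-flox control was the highest array for 8 of the 13, against 24.8% of all genes.

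Genes that glucocorticoids, the adrenal stress hormones, induce in many tissues were lower in LDKO. The median over 26 genes was −0.57, 22 were lower and 13 were at least 1.5-fold lower, where 3.88% of all genes were. Ddit4, an inhibitor of mTORC1 that stress and glucocorticoids induce, read 8.31, 6.83, 8.19 and 8.43 (difference −1.48). Tat, tyrosine aminotransferase, read 5.91, 4.72, 5.39 and 6.77 (difference −1.18), and Errfi1, a brake on the epidermal growth factor receptor, read 9.30, 8.13, 8.45 and 8.62 (difference −1.17). The transcription factor gene Cebpd read 6.94, 6.02, 6.76 and 6.31 (difference −0.92). Each was lowest in LDKO. For Ddit4 and Cebpd the other control stood with the Irs1/2-flox control, and for Errfi1 it stood nearer to LDKO. The receptor gene itself, Nr3c1, differed by 0.31. Cdkn1a, a cell cycle inhibitor on the list, was at −0.85 but at 0.22 against the other control, and the list's median there was −0.32.

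Ddit4 also headed the list of CDK inhibitors and p53 targets, whose median was −0.16. Trp53inp1, a p53-induced protein, read 9.64, 8.23, 9.50 and 9.24 (difference −1.41), and Gadd45g, a stress-induced regulator of growth arrest, read 8.49, 7.20, 8.50 and 7.85 (difference −1.30). In the other direction Cdkn2c, the CDK inhibitor p18, read 6.39, 7.61, 6.80 and 6.52 (difference 1.22), highest in LDKO, and Sesn3 was higher by 0.69. FoxO and fasting-responsive genes had a median of −0.22, with 16 of 23 lower and 7 higher, where 43.2% of all genes were higher. Their ubiquitin ligase gene Fbxo32 read 7.32, 6.38, 7.20 and 7.03 (difference −0.95), and Fkbp5, a co-chaperone of the glucocorticoid receptor, read 7.77, 7.03, 7.68 and 8.004 (difference −0.74). Superoxide dismutase Sod2 had the highest value of the 7 higher members, 0.75. Against the other control the medians of the 2 lists were −0.12 and −0.31. These lists share genes and are not separate measurements.

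Immediate early genes, which respond within minutes to handling, nerve input and growth factors, had a median of −0.27, but 0.17 against the other control. The nuclear receptor gene Nr4a3 read 7.64, 6.16, 6.63 and 6.61 (difference −1.48), with the Irs1/2-flox control about 1 unit above 3 arrays. Fos was at −0.53 against the Irs1/2-flox control and at 0.33 against the other, and Jun at −0.54 and 0.12. Egr2 and Arc were higher by 0.40 and 0.36. The sign of this group's median depended on the control array used.

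**Figure D3:**
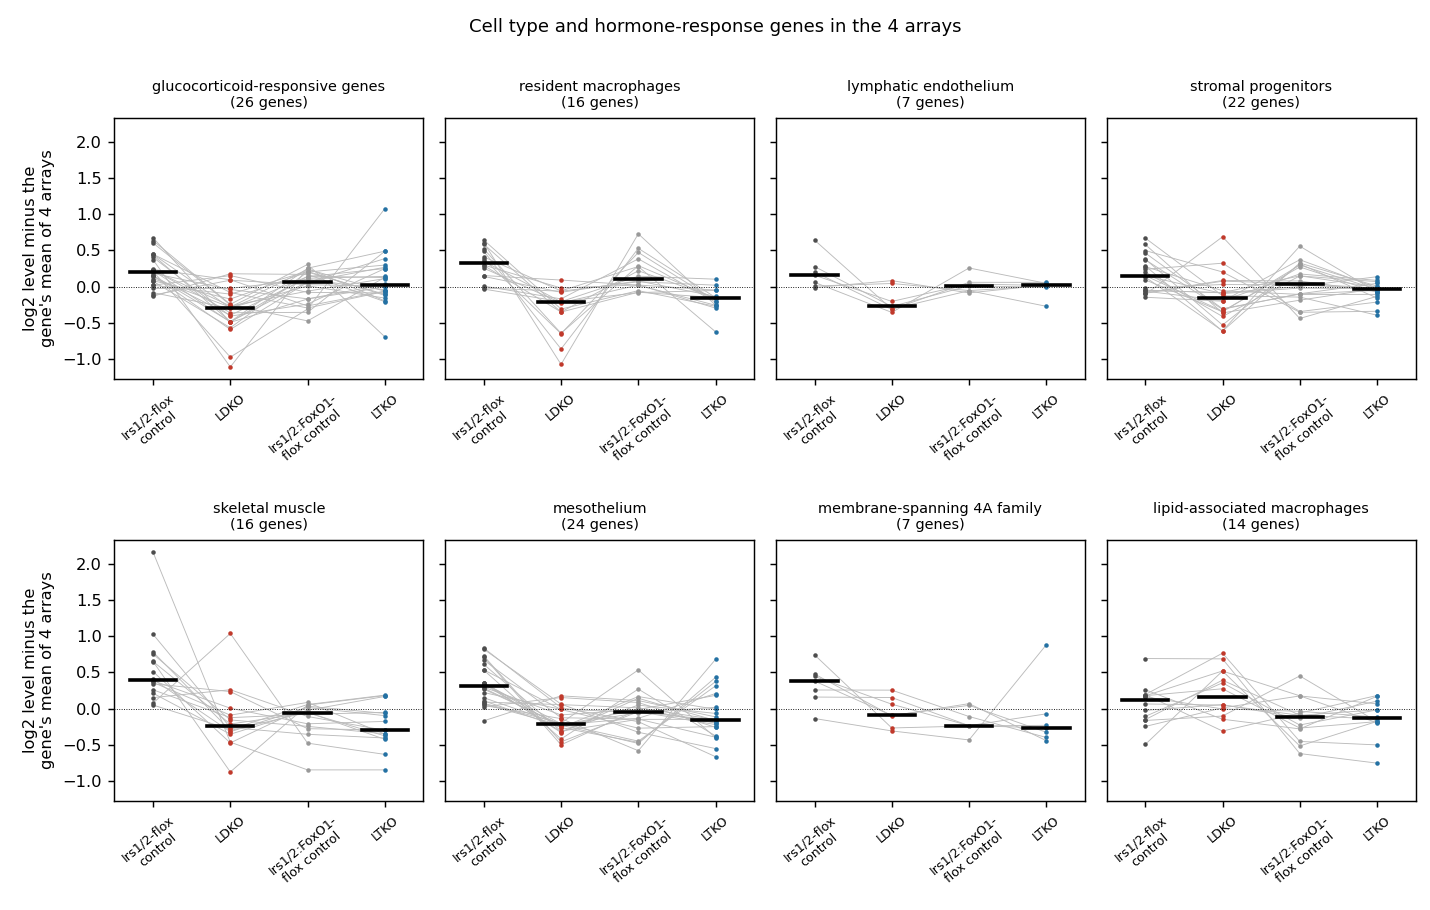
Each panel is a gene list, drawn as log2 levels minus each gene's mean over the 4 arrays (vertical axis) for 1 array per genotype (horizontal axis), with grey lines for genes and black bars for medians. In resident macrophages the medians are 0.32, −0.22, 0.11 and −0.16 from left to right and in glucocorticoid-responsive genes LDKO is lowest at −0.29, while in skeletal muscle (0.39, −0.24, −0.07 and −0.30) and mesothelium (0.32, −0.22, −0.05 and −0.16) the Irs1/2-flox control stands above the other 3.

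Macrophage genes were listed by subset. Genes of tissue-resident macrophages, which line vessels and take up debris, were lower in 16 of 16 cases with a median of −0.52. Of them 7 were at least 1.5-fold and 4 at least 2-fold lower, where 3.88% and 0.624% of all genes were. Cd209g and Cd209b, lectin receptors that bind sugars on microbes, read 6.86, 5.18, 6.98 and 5.99 (difference −1.68) and 6.41, 5.07, 6.45 and 5.78 (difference −1.35). Folr2, a folate receptor of perivascular macrophages, read 8.35, 7.19, 8.12 and 7.67 (difference −1.16), and Fcna, the secreted lectin ficolin A, read 6.94, 5.91, 7.03 and 6.37 (difference −1.03). In all 4 genes LDKO was lowest and LTKO next, with both controls above. With the other control as reference they differed by −1.80, −1.39, −0.93 and −1.12, and the list's median was −0.31. The scavenger receptor Stab1, also found on endothelium, differed by −0.04.

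General macrophage and monocyte genes had a median of −0.17 and 0.04 against the other control. Lyz1 differed by −0.75, the receptor gene Csf1r by −0.36 and the pan-macrophage marker Adgre1 by −0.29, while Fcgr1 was at 0.23. Genes of lipid-associated macrophages, the type that gathers around dying adipocytes, had a median of 0.09, and 0.26 against the other control. Of these 14 genes 9 were higher and 5 lower, with a lowest value of −0.50, and only 1 was at least 1.5-fold higher. Fabp5, a fatty acid carrier, was higher by 1.01, the galectin gene Lgals3 by 0.57 and the protease gene Ctsd by 0.55, with the receptor gene Trem2 at 0.06. Genes of MHC class II and dendritic cells were higher in 10 of 13 cases, with the chemokine receptor Ccr7 at 0.59 and the lectin Mgl2 at −0.51. A difference between the subsets was not tested, since each has 1 array per genotype.

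The Ms4a family of membrane proteins, found on macrophages and other leukocytes, had 7 of 7 members lower with a median of −0.38. Ms4a4a read 8.55, 7.54, 7.57 and 7.58 (difference −1.01), and the Irs1/2-flox control was about 1 unit above 3 arrays that nearly coincided. That array was the highest of 4 for 6 of the 7 members, where it was for 24.8% of all genes. The family's median was 0.12 against the other control.

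Inflammatory signals were mixed. Interferon-responsive genes had a median of 0.01, with the antiviral protein gene Oasl2 at −0.65, the exonuclease Isg20 at −0.92 and Ifi27 at 0.67. Interleukins and their receptors had 28 of 40 genes lower and 12 higher, with a median of −0.12 and Il18 at −0.61. Of all genes 43.2% were higher, with a median of −0.05. Against the other control the list's median was −0.05, where all genes had −0.06. Chemokines and receptors had a median of −0.15, with the B cell attractant Cxcl13 at −0.71 but at 0.88 against the other control. Annexin A2 (Anxa2), a membrane-binding protein of many cells, was higher by 1.04 and by 1.12 against the other control. Lists of lymphocytes and mast cells were small, with 9 T and NK cell genes, 6 B cell genes and 6 mast cell and eosinophil genes past the filter. The mast cell and eosinophil list had a median of −0.20, with 4 of 6 genes lower. Against the other control its median was 0.29, with 6 of 6 higher. Its highest value was that of the eosinophil ribonuclease Rnase2a, against the direction of the list's median. Rnase2a read 3.94, 6.05, 6.05 and 6.76 (difference 2.11), with the Irs1/2-flox control far below the other 3 arrays.

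Lymphatic endothelial genes had a median of −0.41 over 7 genes, and −0.25 against the other control. Lyve1, a hyaluronan receptor of lymphatics that resident macrophages also carry, read 9.84, 8.89, 9.14 and 8.93 (difference −0.95), and Mmrn1 and Pdpn differed by −0.55 and −0.52, with the growth factor receptor gene Flt4 at 0.10. Prox1, the transcription factor that defines lymphatic cells, did not pass the filter at 4.40, 4.16, 4.24 and 4.71 (difference −0.25). The blood endothelial list was near 0, at 0.03, with the junction protein Cldn5 at 0.83 and the arterial factor Sox17 at −0.58. Sox7, an endothelial transcription factor, read 7.82, 6.08, 7.25 and 7.23 (difference −1.73), with LDKO more than 1 unit below each other array.

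Stromal progenitor genes, of the fibroblast-like cells that give rise to adipocytes, were lower in 17 of 22 cases with a median of −0.31. The other 5 were higher, where 43.2% of all genes were. Against the other control 14 were lower with a median of −0.19. The Irs1/2-flox control was the highest array for 9 of the 22, against 24.8% of all genes. Fmo2, a flavin monooxygenase, read 10.79, 9.85, 10.02 and 10.19 (difference −0.94), fibronectin (Fn1) read 9.86, 8.95, 9.79 and 9.32 (difference −0.91) and the microfibril gene Mfap5 read 8.40, 7.50, 8.44 and 8.12 (difference −0.90). Fn1 and Mfap5 were lower against both controls, by −0.84 and −0.94 against the other, and for Fmo2 that value was −0.18. F3, tissue factor, which marks progenitors that restrain fat formation, went the other way at 0.80.

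In the matrix, matricellular proteins had a median of −0.26 (−0.09 against the other control). Of 27 such genes 7 were at least 1.5-fold lower, where 3.88% of all genes were. Thbs2, thrombospondin 2, which restrains vessel growth, read 10.44, 7.10, 9.67 and 9.37 (difference −3.34), and Thbs1 read 10.22, 9.09, 9.63 and 9.64 (difference −1.13). Both were lowest in LDKO. Sparc, a collagen-binding protein of adipose matrix, was higher by 0.37 and the microfibril gene Mfap2 by 0.44. Proteoglycans had a median of −0.26, or −0.10 against the other control, with the cell surface proteoglycan Sdc4 at 9.47, 8.33, 8.92 and 9.35 (difference −1.13) and Cspg4, a pericyte and progenitor marker, higher by 0.75. The list of smooth muscle and pericyte genes had a median of −0.09, with 10 of 17 lower and a highest value of 0.75. Against the other control its median was −0.47, with 16 of 17 lower. Of the Col family of collagens 21 of 29 genes were higher with a median of 0.17, or 0.11 against the other control. By list the medians differed in sign. Fibrillar collagens and processing genes were at −0.08 (13 of 24 lower), basement membrane genes at −0.04 (16 of 24 lower) and other collagens at 0.22 (11 of 15 higher). Col15a1, a basement membrane collagen, read 6.06, 7.83, 6.42 and 6.28 (difference 1.78), and the collagen VI genes Col6a1, Col6a2 and Col6a3 were higher by 0.74, 0.49 and 0.41, against 0.79, 0.39 and 0.05 with the other control, and the second probe of Col6a1 differed by 0.35. Col14a1 was the most negative at −0.60.

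Growth factor genes held some large differences. In the TGF-beta and BMP list 38 of 49 genes were lower with a median of −0.14, or −0.11 against the other control, yet Bmp3, a secreted factor of adipocyte precursors and large adipocytes, read 6.79, 8.20, 6.54 and 6.48 (difference 1.41), with LDKO more than 1 unit above the others. The activin receptor gene Acvr1b read 7.41, 6.60, 6.80 and 7.26 (difference −0.81), and Bmp2 read 5.69, 4.95, 5.01 and 4.64 (difference −0.74), where the Irs1/2-flox control was the array apart. Angpt1, which stabilises vessels, read 6.30, 7.77, 7.13 and 6.81 (difference 1.47) (its second probe differed by 0.13), and Hgf, hepatocyte growth factor, read 4.88, 6.24, 5.42 and 4.95 (difference 1.36). Fgf13, an intracellular member of the fibroblast growth factor family, read 4.65, 6.35, 4.18 and 4.43 (difference 1.70). LDKO was the highest array for Angpt1, Hgf and Fgf13. Sfrp5, a Wnt inhibitor secreted by adipocytes, read 7.34, 5.97, 6.77 and 7.10 (difference −1.38), lowest in LDKO, and apelin (Apln), a peptide hormone of fat, was higher by 0.85.

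Imprinted genes, expressed from 1 parental copy, held 3 of the largest differences on the array and little else. Their median was −0.11 over 24 genes. Zim1 and Peg3, neighbours in the genome, read 9.41, 5.66, 9.75 and 8.69 (difference −3.75) and 11.35, 9.07, 11.45 and 11.30 (difference −2.28), and Mest read 10.42, 8.55, 10.56 and 10.26 (difference −1.87). All 3 were lowest in LDKO, with LTKO next. A further probe set that the annotation gives to Peg3 together with its antisense transcript differed by −2.48. Nap1l5, also imprinted, was higher by 0.77, and Grb10 was at −0.50.

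Single transcription factor genes stood apart from their lists. Irf4, an interferon regulatory factor that fasting induces in adipocytes and that lymphocytes also carry, read 9.42, 6.75, 8.61 and 8.59 (difference −2.67), far lower in LDKO than in the other arrays. Stat3, which carries interleukin 6 and leptin signals, read 9.30, 8.67, 9.22 and 9.21 (difference −0.63), and Il6ra, the interleukin 6 receptor, read 8.93, 7.87, 8.97 and 8.85 (difference −1.06). All 3 were lowest in LDKO. The circadian list had a median of −0.07, with the repressors Nr1d2 and Cry2 at −0.53 and −0.49 and Per3 at 0.40. Esr1, the oestrogen receptor, was higher by 0.51, against 0.51 with the other control.

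Among receptors for peptides, Cmklr1, which binds the adipokine chemerin, read 8.08, 6.15, 7.47 and 7.83 (difference −1.93), and LDKO was more than 1 unit below each other array. Npr3, the clearance receptor for natriuretic peptides, was higher by 0.85 and by 0.94 against the other control. The adhesion receptor Adgrd1 read 8.91, 7.85, 8.64 and 7.93 (difference −1.06), lowest in LDKO. In the growth hormone and insulin-like growth factor list (median −0.01) Igfals, the acid-labile subunit of the circulating complex, was higher by 1.04, and Igfbp6 and Socs2, a feedback inhibitor of growth hormone signalling, differed by −0.74 and −0.63, with 0.26 at the second probe of Socs2. Ncam2, a neural adhesion molecule, read 5.05, 7.01, 4.59 and 5.002 (difference 1.95), and Serpina3b, a secreted protease inhibitor, read 3.89, 6.08, 3.96 and 4.46 (difference 2.19). LDKO was the highest array for Ncam2 and Serpina3b.

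Skeletal muscle and mesothelium, tissues that can adhere to or cover a fat pad, gave the other 2 lower lists. Of 31 muscle genes 16 passed the filter, 14 were lower, 4 at least 2-fold, and the Irs1/2-flox control was the highest array for 13. Of all genes 0.624% were at least 2-fold lower, and that array was the highest for 24.8%. Fast myosin Myh4 read 7.57, 4.95, 4.56 and 4.56 (difference −2.62), and titin (Ttn) read 5.71, 4.42, 4.33 and 4.28 (difference −1.29), with the Irs1/2-flox control apart from 3 close arrays. Skeletal actin Acta1 read 8.73, 7.21, 8.13 and 8.26 (difference −1.52), with LDKO below the rest as well. Atp2a1, the calcium pump of muscle, differed by −1.08 and by −0.25 from the other control. The fast myosin light chain Myl1 went the other way at 0.96. The list's median was −0.10 against the other control.

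Mesothelial genes were lower in 22 of 24 cases, and the Irs1/2-flox control was the highest array for 15, against 24.8% of all genes. Upk3b, a mesothelial surface protein, read 9.32, 8.11, 8.60 and 8.41 (difference −1.22), and the mucin Muc16 read 5.61, 4.42, 4.84 and 4.66 (difference −1.19). Lrrn4 and Gpm6a, membrane proteins of mesothelium, differed by −0.95 and −0.92, against −0.69 and −0.16 with the other control. Wnt5a was higher by 0.34. Over the same genes the median was −0.03 against the other control. How far a difference in dissection or adhering tissue enters the comparison was not tested.

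The genes ranked 11 to 40 by difference, which the lists only partly cover, ran from 1.83 down to 1.21 and from −1.93 to −1.16. Of the 30 higher genes 26 can be named here, and of the 30 lower genes 27. The others are predicted genes, a small RNA gene and antibody genes. Among the 30 higher genes LDKO was the highest array for 29 and the Irs1/2-flox control the lowest for 19. Among the 30 lower genes LDKO was lowest for 28 and the Irs1/2-flox control highest for 20. The ranking used the difference of these 2 arrays, so these places largely follow from it. Over all genes LDKO was highest for 23.5% and lowest for 37.5%, and that control lowest for 23.6% and highest for 24.8%.

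Several of the higher genes are metabolic enzymes or transporters. Gpt, alanine aminotransferase, which links glycolysis to amino acids, read 4.98, 6.72, 5.27 and 5.36 (difference 1.74), and fatty acid synthase Fasn read 9.17, 10.65, 10.18 and 10.25 (difference 1.47). Steap4, a metalloreductase of adipocytes, read 9.35, 10.70, 9.18 and 8.97 (difference 1.35), and Aqp11, a water and glycerol channel of the endoplasmic reticulum, read 5.49, 6.75, 6.22 and 6.64 (difference 1.25). LDKO stood above the 3 others for Gpt and Steap4, whereas for Fasn and Aqp11 the Irs1/2-flox control was the array set apart below. The mitochondrial carrier Slc25a35 read 6.31, 7.60, 6.63 and 6.36 (difference 1.30), and the related carrier Slc25a42, which takes coenzyme A into mitochondria, read 6.87, 6.02, 7.71 and 7.68 (difference −0.86). Aldh3b2, a lipid droplet aldehyde dehydrogenase, read 5.72, 6.94, 6.66 and 6.38 (difference 1.22), and Insig1, a sterol-sensing brake on SREBP processing, read 9.50, 10.74, 9.49 and 9.62 (difference 1.24).

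Others belong to the membrane, the surface or the nucleus. Nabp1, a single-stranded DNA binding protein, read 9.47, 11.21, 10.27 and 9.83 (difference 1.74), and Tmem182, a membrane protein of muscle and fat, read 10.03, 11.28, 10.38 and 10.36 (difference 1.25). Adam12, a metalloprotease of adipogenic and fibrogenic cells, read 5.84, 7.35, 6.45 and 6.33 (difference 1.52), and Tenm4, a teneurin adhesion protein, read 6.86, 8.28, 7.24 and 7.02 (difference 1.42), with 0.50 at its second probe. The palmitoyltransferase Zdhhc2 read 5.76, 7.05, 6.75 and 6.60 (difference 1.29), and keratin Krt79 read 5.60, 6.89, 6.15 and 6.55 (difference 1.29). Rab9b, a small GTPase of endosomes, read 6.34, 7.63, 6.24 and 6.20 (difference 1.29), and Ranbp3l, a nuclear export factor of SMAD proteins, read 4.81, 6.08, 4.69 and 5.01 (difference 1.27). Rab9b and Ranbp3l had 3 close arrays and LDKO above them, while for Zdhhc2 and Krt79 the Irs1/2-flox control lay below the rest.

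Among the lower genes ranked 11 to 40, Retreg1, a receptor for autophagy of the endoplasmic reticulum, read 7.66, 5.77, 6.38 and 7.01 (difference −1.89), and Scara5, a ferritin receptor of stromal cells, read 7.90, 6.65, 7.61 and 7.37 (difference −1.25). Ifi205, an interferon-inducible DNA sensor, read 10.65, 9.31, 9.71 and 9.63 (difference −1.33), with the Irs1/2-flox control about 1 unit above all others. Tnfrsf11b, osteoprotegerin, read 7.10, 5.82, 5.56 and 5.93 (difference −1.27), where LDKO was not the lowest array and the difference against the other control was 0.26. Chchd10, a protein of mitochondrial cristae, read 9.35, 8.18, 10.15 and 9.70 (difference −1.17), and Pmepa1, a feedback inhibitor of TGF-beta signalling, read 9.002, 7.79, 9.19 and 9.25 (difference −1.21). In both the controls and LTKO were above LDKO. The small heat shock protein Hspb7 read 7.22, 6.04, 6.24 and 6.31 (difference −1.18), the sulfotransferase Chst4 read 5.98, 4.66, 5.70 and 5.07 (difference −1.33), the deubiquitinase relative Usp54 read 7.65, 6.35, 7.03 and 7.19 (difference −1.29) and the retrotransposon-derived gene Rtl8c read 8.23, 6.78, 8.03 and 7.39 (difference −1.45).

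**Figure D4:**
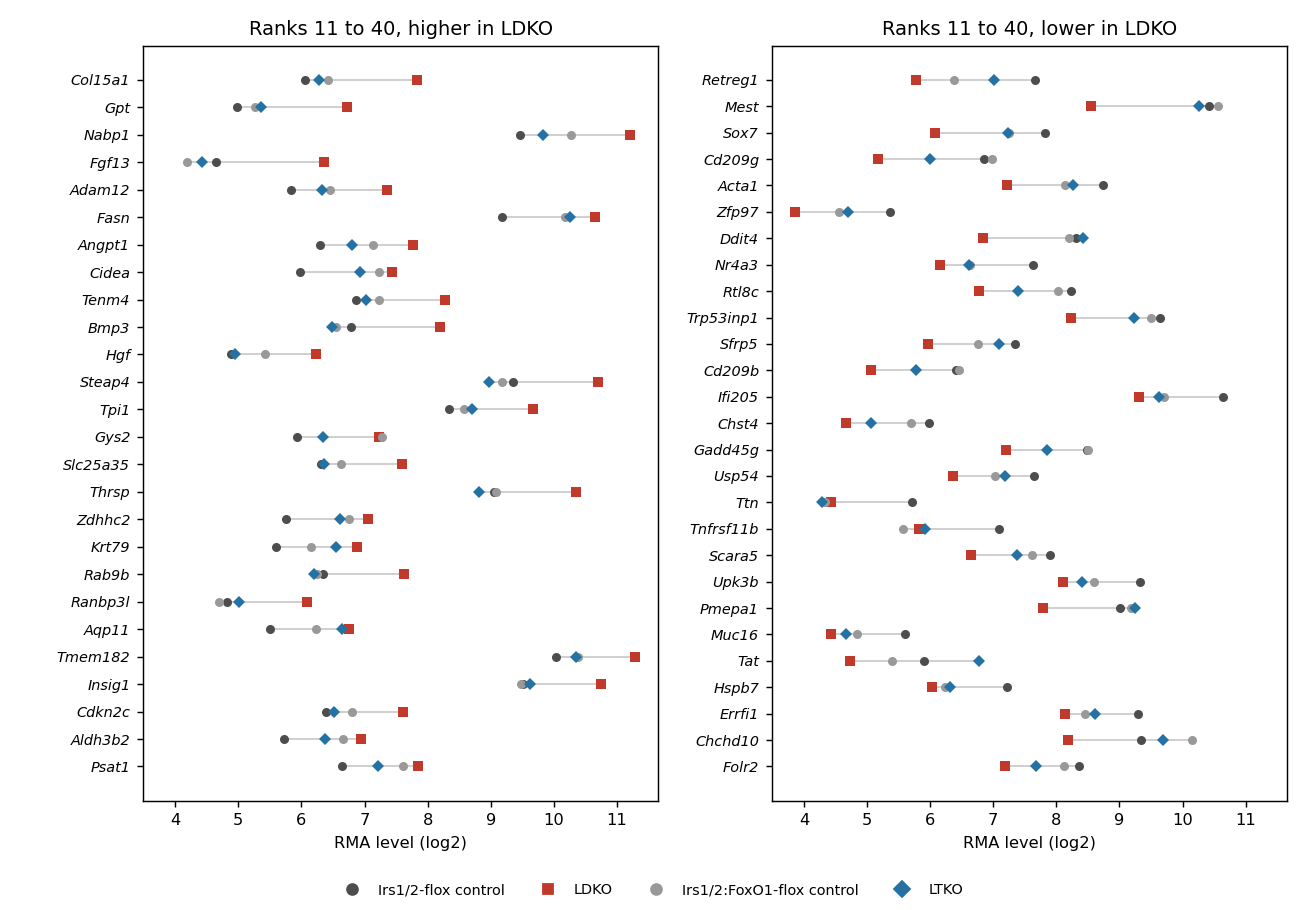
The log2 RMA level (horizontal axis) in each of the 4 arrays for the namable genes ranked 11 to 40 among those higher (left, 26 genes) and lower (right, 27 genes) in LDKO than in the Irs1/2-flox control; 1 symbol is 1 array. LDKO squares lie at the right end for most genes on the left and at the left end for most on the right, with exceptions such as Gys2 (7.23 in LDKO and 7.28 in the other control) and Tnfrsf11b.

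Genes next to each other in the annotation were also compared. Among 11517 genes with a known place in the order, 47 runs of neighbours were at least 1.5-fold apart in the same direction, 17 higher and 30 lower, and only 1 of them held 3 genes, Aldh3b2 with Acy3 (0.71) and Tbx10 (0.67). Pairs included Hcar1 with Hcar2, Zim1 with Peg3, Tat with Chst4, Acot4 with Acot3, and the G protein regulators Rgs2 (−0.88, and −0.14 at its second probe) and Rgs18 (−0.63). Acad9 lay beside Mccc1, and the cavin gene Cavin3 beside the acid sphingomyelinase gene Smpd1 (0.75, and −0.11 at its second probe). Whether probes of neighbours read a shared transcript was not tested.

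Large positive differences were most frequent in the brightest of 10 level classes. When the 11533 genes were divided into 10 classes by their mean level, 7.02% of the brightest class were at least 1.5-fold higher and 1.21% to 3.73% of the other classes, among which the dimmest had the 3.73%. The brightest class held 18 of the 66 genes that were 2-fold higher, and the 2 brightest classes held 13 each of the 72 that were lower. The brightest class spans levels from 8.83 to 13.33 and holds Cycs and Fasn. The part of signal level in the differences was not tested.

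**Figure D5:**
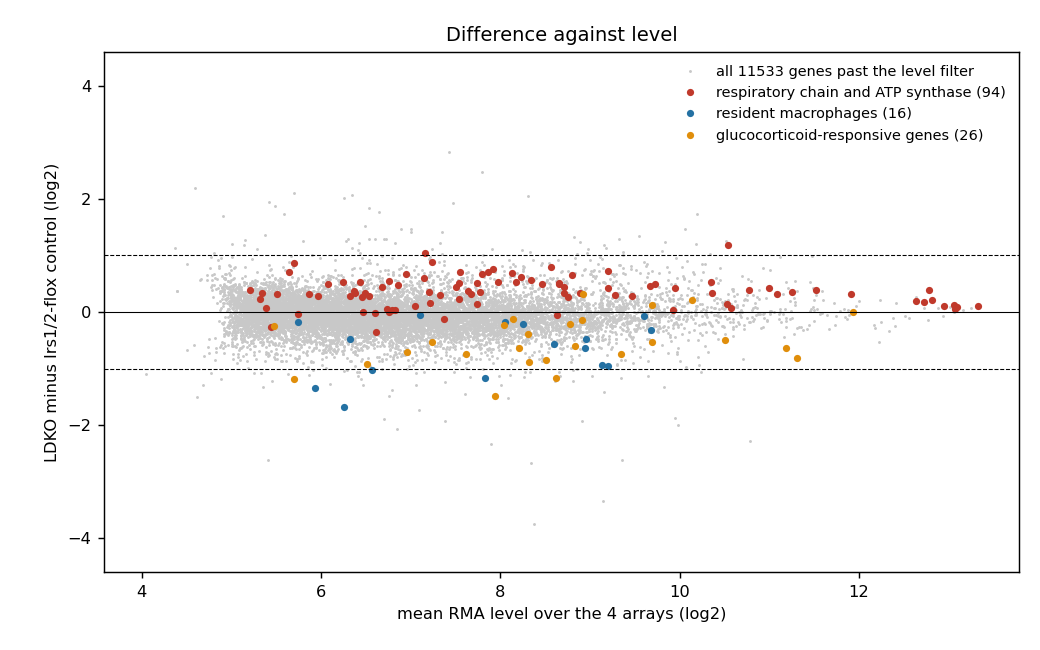
The difference LDKO minus Irs1/2-flox control (vertical axis, log2) is plotted against the mean level over the 4 arrays (horizontal axis, log2) for 11533 genes, with dashed lines at a 2-fold difference. Of the respiratory chain genes (red) 87 of 94 lie above 0, with a median of 0.34, and resident macrophage genes (blue) lie below 0.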

How the data were processed

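The deposited log2 values are RMA signals from the authors' run of Affymetrix Expression Console, per the submitters' processing notes, from RNA labelled with a whole-transcript kit. Software versions and the arrays normalized together: not given in the sources used here. Array medians lay between 4.68 and 4.73. The number of arrays, 1 per genotype, limits the precision.

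Of 41345 probes 23521 carried exactly 1 gene symbol, 1814 several and 16010 none in the platform annotation, and 23328 symbols were matched to RefSeq by gene ID. For the 1082 genes with several probes the brightest was used. Differences, medians, places among the arrays and counts at 1.5-fold and 2-fold were computed with Python 3.11.15, numpy 2.4.6 and pandas 2.3.3. No test was possible and none was run. The counting was tested on simulated data.

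Gene lists and the members described were chosen with earlier results of these data known. The 163 lists hold 7430 measured genes, 3741 of them past the filter, and 167 listed symbols were unmatched. Named are the genes ranked 11 to 40 in each direction, up to 4 members of a list in the direction of its median and up to 3 in the other, and up to 3 members of a symbol family; predicted genes, small RNA, chemoreceptor and antibody genes are only counted. A few further genes that define a cell type or a step were named with their values known.

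Promoters (RefSeq, GRCm38.p6) were searched on both strands for NRF1 GCGCATGCG, ERR TCAAGGTCA, YY1 AAGATGGCG, E-box CACGTG, CRE TGACGTCA, FoxO TGTTTAC, ETS ACTTCCGG and NF-Y CCAATCA, for 9041 of the 11533 genes. The alternatives tried were another size threshold, filter, probe rule, list summary, normalization and reference array.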

Additional observations from a re-analysis of the deposited data

Results flagged for a closer look

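Probes that the comparisons did not use also differed between LDKO and the Irs1/2-flox control, without a replicate. Of 849 probes with several gene symbols past the filter 10 were higher by 2-fold or more and 5 lower by as much. The largest were the probe of Sycp3 and Chpt1 (2.04), a probe of Arxes1 and Arxes2 (1.98), the probe of Ifi27l2a and Ifi27l2b (1.53), that of Peg3 and its antisense gene Peg3os (−2.48) and that of Acsm3 and Eri2 (−1.96), and each cannot be assigned to 1 gene. Of 5414 probes without a gene name here 102 were higher by 2-fold or more and 112 lower.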

How the results depend on the processing

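No paired analysis was possible because each genotype had 1 array. The 66 higher and 72 lower genes became 329 and 448 at 1.5-fold and 15 and 15 at 3-fold, by construction of the threshold. With the mean of both controls as reference, 3 lists in place of 8 had a median of 0.3 or more, and of the 7 lower lists 4 stayed at −0.3 or less. With the Irs1/2:FoxO1-flox control as reference 2 lists had such a median, neither of them among the 8, and 4 in place of 7 had a median of −0.3 or less, of which 2 were among the 7. All 8 higher lists kept their sign against that control. Repeated quantile normalization, a loess curve on level, the mean of all probes and the mean in place of the median left all 8 and all 7 lists past their bound, and lists without the level filter left 6 and 5. Against the Irs1/2:FoxO1-flox control the sign turned for the Ms4a list (0.13) and for mesothelium (0.019), over the members past the filter in that comparison, and for Gys2 (−0.050), Myh4 (0.38), Ttn (0.093) and Tnfrsf11b (0.26) among 104 genes at least 2-fold apart that were recomputed. The cause was not tested. Of 983 list and ranked genes recomputed, 637 moved by more than the median absolute gap between the 2 controls when that control was used, and 47 when the probes of a gene were averaged. Genes with both arrays under the filter level, 5.15, entered no count or list median outside the settings without the filter, and with 1 array per genotype the spread between animals is unknown.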
